A study of Mus musculus with 4 samples.

Results

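Nearly all of the genes described here build, fill and service endosomes and lysosomes. They were taken from a table of mRNA 3′ ends as every gene whose name begins with Atp6v, Atp6ap, Lamp, Vps, Snx or Chmp followed by its letter or number, or with Laptm, together with the cathepsins Ctsa, Ctsb, Ctsd, Ctsl and Ctsz and the genes Psap and Scarb2. This rule, which uses names and no measured value, found 71 of the 7202 named genes, at 83 of 9297 polyA sites, with 264 of 34672 tags. The name rule also took Vps72, which encodes a nuclear chromatin-remodelling subunit and held 3 of the tags.

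The data are 4 libraries of cTag-PAPERCLIP from microdissected neuropil of hippocampal CA1, the layer that holds the dendrites of pyramidal neurons. In this method the polyA-binding protein PABPC1 carries a tag in Cre-expressing cells, is crosslinked to RNA by ultraviolet light and is purified, so that the sequenced fragments (tags) mark the 3′ ends of bound mRNAs. All 4 libraries came from C57BL/6 mice of the genotype Camk2a-Cre x Pabpc1-cTag, with several mice pooled for each library, and all belong to 1 group without a second condition; the labels give no age. The Camk2a promoter limits the tagged protein to excitatory neurons in the hippocampus, and tissue from other cells was present during purification. The study combined such sites with those of other libraries to define the 3′ ends of mRNAs in pyramidal neurons, and the comparisons possible here are between libraries, between genes and between sites.

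The vacuolar ATPase pumps protons into endosomes, lysosomes and synaptic vesicles. Its V1 sector hydrolyses ATP on the cytoplasmic side and its V0 sector carries the protons through the membrane. Cargo that reaches endosomes is either recycled by retromer and sorting nexins or packed into internal vesicles by ESCRT complexes and passed to lysosomes, where cathepsins degrade it. In neurons these steps also set which receptors return to the synaptic surface.

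Replicates 1 to 4 held 16017, 6609, 5947 and 6099 tags. At a listed site or gene, a count of 0 therefore allows a share of up to 0.0187%, 0.0454%, 0.0504% and 0.0492% of tags (3 tags of the total). These limits and all intervals cover counting error only, since PCR copies of 1 molecule can be counted as several tags. Sites that resemble the short repeat-derived RNA Bc1 took 32.9%, 11.8%, 2.59% and 2.07% of the tags of replicates 1 to 4, which changes the total that every share is divided by. Among lists of marker genes for the cell types of this tissue, that for pyramidal neurons had 93 tags from 7 of 10 genes, or 331 with the 238 tags of Camk2a and Slc17a7 that stand under the names of microRNA genes, that for astrocytes 86 tags from 10 of 10 and that for oligodendrocytes 103 tags from 8 of 10. Interneuron markers had 51 tags from 6 of 10 genes and haemoglobin and other blood markers 128 tags from 4 of 6.

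The 3′ ends behind the results are shown first, because these short stretches are what the tags mark. They are the most tagged site of each of the 12 genes with the most tags, 30 bases each from RefSeq's GRCm38 sequence, which is mm10, read 5′ to 3′ on the strand of the gene. Capitals mark the polyA signal, AATAAA or ATTAAA, that lies nearest to the listed site, and in Atp6v1d, which has neither within 50 bases, the variant AGTAAA.

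Atp6v1e1: tattctttatttATTAAAacagagggctta (chr6:120795250-120795279, minus strand)
Atp6v1h: aaaatgaatataATTAAAggattctcactc (chr1:5162415-5162444, plus strand)
Atp6v1b2: gttataaatgaaAATAAAtgttaaattaaa (chr8:69113673-69113702, plus strand)
Snx27: catattcttttaAATAAAttgatttattga (chr3:94497552-94497581, minus strand)
Snx3: aagttgttttcaAATAAAagttgaaatgca (chr10:42535341-42535370, plus strand)
Atp6v1g2: cagcggagtgtcAATAAAatactggtggat (chr17:35238731-35238760, plus strand)
Atp6ap2: tatagaatgacaAATAAAgataatgattca (chrX:12616712-12616741, plus strand)
Lamp1: tgtaacgatgctAATAAAaagtctccttct (chr8:13175300-13175329, plus strand)
Atp6v0b: tagtgtttgtgaAATAAActtggtatttgt (chr4:117884334-117884363, minus strand)
Chmp5: ttatttatactcAATAAAtatttttcaaaa (chr4:40965271-40965300, plus strand)
Ctsb: aatgtctgtgccAATAAAccaattctccct (chr14:63143098-63143127, plus strand)
Atp6v1d: tttaaatgtgacctatgaacagAGTAAAat (chr12:78842995-78843024, minus strand)

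All 12 sites lay in the annotated 3′UTR of the gene that the table names. The nearest signal was AATAAA in 9 of the 12 windows, ATTAAA in those of Atp6v1e1 and Atp6v1h, and AGTAAA in that of Atp6v1d. The window of Atp6v1b2 also holds ATTAAA, at its downstream end.

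Taken as 1 set, the 71 genes held 99, 47, 58 and 60 tags in replicates 1 to 4, or 0.618%, 0.711%, 0.975% and 0.984% of all tags (0.822% ± 0.186, SD, n = 4). Replicates 1 and 2 were the lower pair. With the Bc1-like sites left out of the library totals and the set, the shares were 0.902%, 0.806%, 1.00% and 1.00% (0.928% ± 0.0945), so the spread was smaller and replicate 2 was the lowest. Endosomal sorting genes (Vps, Snx and Chmp) took 120 tags over 45 genes, the proton pump 107 tags over 16 genes and the lysosomal proteins 37 tags over 10 genes. Tags mark 3′ ends, so each mRNA molecule offers 1 end and no division by length was made when genes were compared.

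The genes were detected at low counts. Tags were found in more than 1 library at 40 of the 83 sites (48.2%, 95% Wilson interval 37.8% to 58.8%), against 34.2% of all sites in the table. Tags were found in all 4 libraries at 12 sites (14.5%, interval 8.47% to 23.6%), against 4.90% of all sites. The share of genes with at least 10 tags was 8.45% (6 of 71), beside 7.40% of all genes, and no gene of the set reached 20 tags, a level that 211 genes of the table passed. The median was 2 tags per gene in the set and in the whole table. These are counts over names and sites of the same libraries and were not tested. The neuropil is a mixed tissue, and fewer cells or dendrites with an mRNA cannot be told apart from less of it in each.

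The 12 genes with tags in every library carried 119 of the 264 tags (45.1%), and 7 of them encode proton pump subunits. The others were the sorting nexins Snx27 and Snx3, the retromer core Vps35, the tether Vps41 and the protease Ctsb. A further 10 genes had tags in 3 libraries, 24 in 2 and 25 in 1. In 4, 3, 2 and 1 libraries these were 16.9%, 14.1%, 33.8% and 35.2% of the set. The same shares of all genes were 7.76%, 14.8%, 24.9% and 52.6%, so detection in 3 libraries was near the table's share. These shares were not tested.

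**Figure D1:**
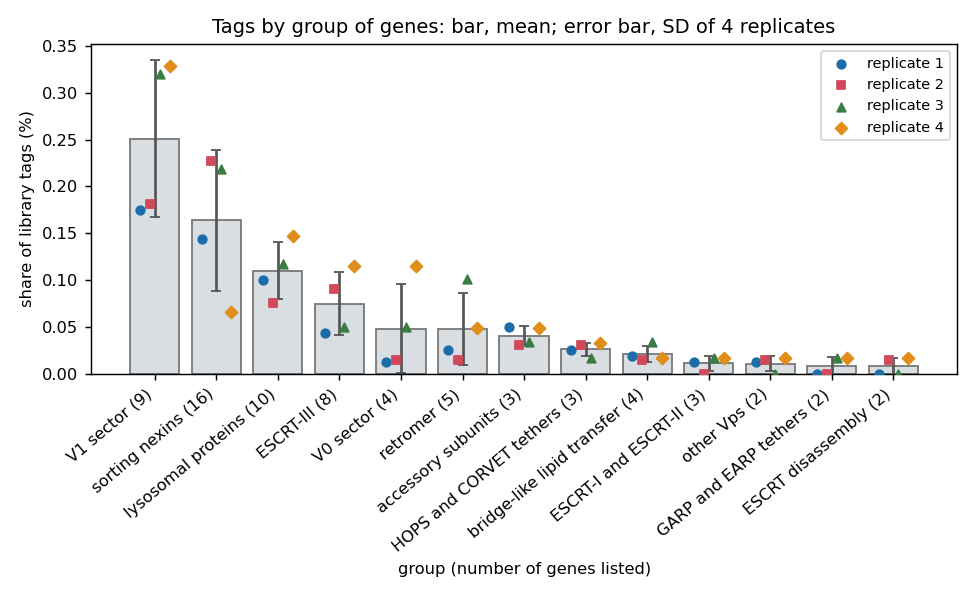
Share of library tags (%, vertical axis) by group of genes, with the number of listed genes in parentheses. Points are the 4 replicates, bars their mean and error bars the SD; the V1 sector was highest at 0.251%, and its points lie above those of the V0 sector in every replicate.

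The proton pump had the largest number of genes with tags in every library. Of its 16 listed genes, 13 (81.25%) had tags in more than 1 library and 7 (43.75%) in all 4. Over the whole table these were 47.4% and 7.76% of genes. At 13 of its 17 sites (76.5%) tags were seen in more than 1 library, against 34.2% of all sites. These differences were not tested. The set held 38, 15, 24 and 30 tags in replicates 1 to 4, or 0.237%, 0.227%, 0.404% and 0.492% of all tags (0.340% ± 0.130, SD, n = 4). Replicates 3 and 4 were above replicates 1 and 2. Lists of cell type markers also differed between the same libraries. Interneuron markers had 0.0812%, 0.106%, 0.219% and 0.295% of tags in replicates 1 to 4, higher in the same pair of libraries. Of these tags, Npy alone had 4, 0, 6 and 12, and without it the list had 0.0562%, 0.106%, 0.118% and 0.0984%. Astrocyte markers had 0.362%, 0.166%, 0.168% and 0.115%. Their part in the pump's shares was not tested.

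The V1 sector, which binds and hydrolyses ATP, supplied most of these tags. Its 9 genes held 28, 12, 19 and 20 tags, and 6 of them were present in every library. Atp6v1e1, a subunit of the peripheral stalks that hold the ATPase head, was the most tagged gene of the whole set and ranked 228 of 7202. It had 5, 2, 5 and 6 tags (0.0610% ± 0.0354, SD, n = 4), with shares from 0.0303% in replicate 2 to 0.0984% in replicate 4. Atp6v1h, the regulatory H subunit, had 5, 3, 4 and 4 tags (0.0524% ± 0.0172) and ranked 260. Of the 6 most tagged genes its counts were the most even across libraries, although replicate 1 had the most tags in total and so gave the lowest share.

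Atp6v1b2, the nucleotide-binding B2 subunit that is the form used in brain, had 6, 1, 4 and 3 tags (0.0423% ± 0.0218). Atp6v1g2, the neuronal form of the stalk subunit G, had 2, 4, 1 and 3 tags (0.0348% ± 0.0237). The order of these 4 V1 genes by mean share was E1, H, B2 and G2, and each neighbour in it differed by less than the SD. The central stalk subunit Atp6v1d had 2, 1, 2 and 1 tags, and Atp6v1c1, which links the peripheral stalks to the V0 sector, had 1 tag in each library. Atp6v1a, the catalytic subunit, had 3, 0, 1 and 1 tags over its pair of sites.

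The V0 sector, the membrane part, had few tags. Its 4 genes held 2, 1, 3 and 7 tags. Atp6v0b, a proteolipid of the proton-conducting ring, is named here after its values were seen, because it held 7 of these 13 tags. It had 0, 0, 3 and 4 tags. At 0 in replicates 1 and 2, the limits of 3 tags are shares of 0.0187% and 0.0454%, and the Wilson intervals reach 0.0240% and 0.0581%. The other V0 genes, Atp6v0e2, Atp6v0e and Atp6v0d1, had 3, 2 and 1 tags in all. Of the 9 protein-coding genes in the GENCODE vM21 annotation whose names begin with Atp6v0, 4 were in the table under their own name, beside 9 of the 14 genes whose names begin with Atp6v1, of which Atp6v1fnb, named as a neighbour of Atp6v1f, is no subunit.

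The log2 ratio of V1 to V0 tags was 3.81, 3.58, 2.66 and 1.51 in replicates 1 to 4 (2.89 ± 1.04, SD, n = 4), a 7.43-fold excess on average. Per listed gene, V1 had 8.78 tags and V0 3.25. V1 was higher in 4 of 4 libraries, but the exact sign-flip permutation test, two-sided, gave p = 0.125, the smallest that 4 libraries allow (0.25 after Benjamini-Hochberg adjustment over 4 ratios). A part of the V0 signal carried other names. At 2 sites inside Atp6v0a1, the gene of a large V0 subunit, the table gave the name of the microRNA gene Mir6928, with 3, 0, 1 and 1 tags, and with these tags added to V0 the mean log2 ratio was 2.41 ± 0.93 (SD, n = 4). The name rule also leaves out Tcirg1, another isoform of that subunit, with 0, 1, 0 and 0 tags. With both added to V0 the log2 ratio was 2.49, 2.58, 2.25 and 1.32 (2.16 ± 0.58), still above 0 in every library.

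The accessory subunits, which help the pump to assemble and travel, had 15 tags over 3 genes. Atp6ap2, also known as the prorenin receptor, had 4, 2, 1 and 2 tags (0.0262% ± 0.00706, SD, n = 4), with shares from 0.0168% to 0.0328%. Atp6ap1 had 3, 0, 1 and 1 tags.

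**Figure D2:**
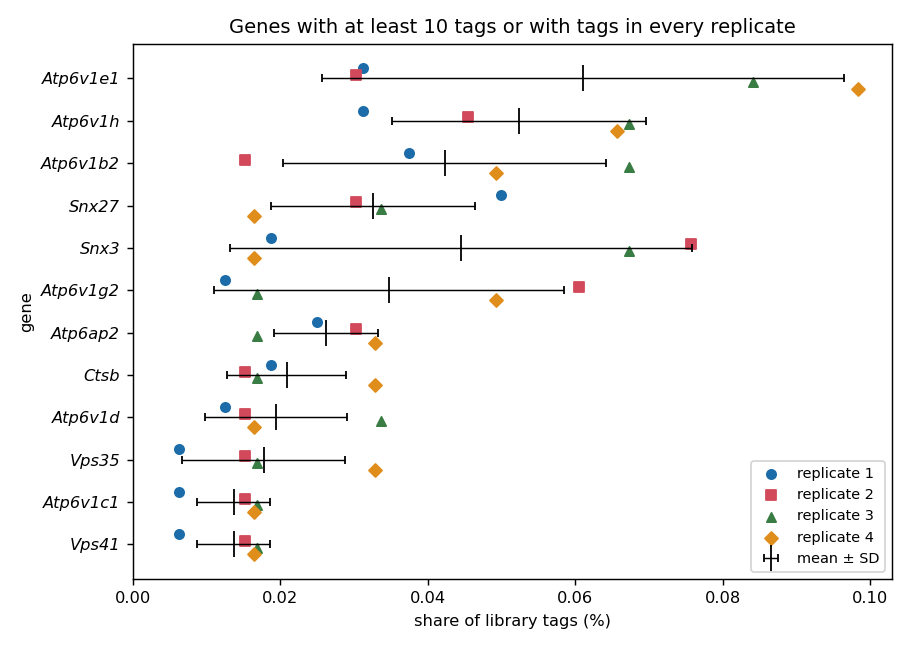
Share of library tags (%, horizontal axis) of the 12 genes with at least 10 tags or with tags in every replicate. Symbols are the 4 replicates, the vertical tick is their mean and the horizontal line the SD; means run from 0.0610% for Atp6v1e1 to 0.0136% for Atp6v1c1 and Vps41, and every replicate of Atp6v1e1 lies above every replicate of the latter pair.

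The lysosomal proteins, which comprise proteases, membrane proteins and the saposin precursor, had 16, 5, 7 and 9 tags in replicates 1 to 4 (0.110% ± 0.0303, SD, n = 4). Ctsb, the cysteine protease cathepsin B, was the 1 gene of the 10 seen in every library, with 3, 1, 1 and 2 tags. Lamp1, a heavily glycosylated protein of the lysosomal membrane, had 3, 1, 4 and 0 tags. Psap, the precursor of the saposins that help to degrade sphingolipids, had 2, 1, 0 and 2 tags, and Ctsl 2, 0, 1 and 2.

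Microglia also express cathepsins, so their markers are given beside this set. The microglial list had 9, 4, 1 and 0 tags in replicates 1 to 4, from 5 of 10 genes. Its complement gene C1qc was listed with 3, 4, 0 and 0 tags, C1qa and Ctss with 2 tags each and Trem2 with 1. Cx3cr1, P2ry12, Tmem119, Csf1r and C1qb were not listed. Astrocyte markers had 58, 11, 10 and 7 tags. The part of either cell type in the lysosomal tags was not tested.

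The endosomal sorting genes had 45, 27, 27 and 21 tags (0.372% ± 0.0755 of all tags, SD, n = 4). They included the most genes. Tags in more than 1 library were found at 20 of their 55 sites (36.4%), close to the 34.2% of all sites. The pump had 13 of 17 such sites and the lysosomal proteins 7 of 11, differences that were not tested. Sorting nexins, which bind phosphoinositides on endosomes, made up the largest group, with 23, 15, 13 and 4 tags over 16 genes. Replicate 4 was the lowest in count and in share, at 0.0656% against 0.144% to 0.227% in the other libraries.

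Snx27, a PDZ-domain nexin that works with retromer in returning synaptic receptors to the surface, had 8, 2, 2 and 1 tags (0.0326% ± 0.0138). Snx3, a retromer adaptor for early endosomes, had 3, 5, 4 and 1 tags (0.0445% ± 0.0313). Both had 13 tags in all, but by mean share Snx3 was the higher since fewer of its tags came from the large replicate 1. The difference was within the SD.

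Retromer, the coat that retrieves cargo from endosomes, was grouped with Vps26c, a subunit of the related retriever complex, and this group of 5 genes had 4, 1, 6 and 3 tags. The 4 retromer genes without Vps26c had 3, 1, 5 and 3. The retromer core subunit Vps35 had 1, 1, 1 and 2 tags (0.0177% ± 0.0111). The ESCRT-III filament genes had 7, 6, 3 and 7 tags over 8 genes, led by Chmp5 with 3, 1, 0 and 3. The tethers HOPS, which acts at late endosomes and lysosomes, and CORVET, which acts at early endosomes, had 4, 2, 1 and 2 tags together, or 2, 2, 1 and 2 without the Bc1-like site of Vps8. The HOPS subunit Vps41 had 1 in each library. The Vps13 family of lipid-transfer proteins had 7 tags over 4 genes. ESCRT-I and ESCRT-II had 4 tags, the ESCRT disassembly ATPases Vps4a and Vps4b 2 tags, and the GARP and EARP tethers 2 tags.

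Pump and sorting genes were close in total. Their log2 ratio was -0.24, -0.85, -0.17 and 0.51 in replicates 1 to 4 (-0.19 ± 0.56, SD, n = 4; exact sign-flip permutation test, two-sided, p = 0.625, adjusted p = 0.625). The direction was not stable. Counted at sites seen in more than 1 library the mean log2 ratio was 0.39, and without replicate 2 it was 0.03.

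For scale, the pump was set against the related rotary enzyme of mitochondria, the ATP synthase. The 9 listed Atp5 genes had 49, 19, 11 and 8 tags. The log2 ratio of pump to Atp5 tags was -0.37, -0.34, 1.13 and 1.91 (0.58 ± 1.13, SD, n = 4; p = 0.5 by the same exact test, adjusted p = 0.625), with 2 libraries on either side of 0. Per listed gene the pump had 6.69 tags and the Atp5 genes 9.67. The whole set of 71 genes was above the 33 listed Rab GTPases, the switches of membrane traffic, in 4 of 4 libraries. Their log2 ratio was 0.54, 0.38, 1.40 and 1.00 (0.83 ± 0.46; exact p = 0.125, the smallest possible, adjusted p = 0.25). These are sums over sets of unequal size, and per listed gene the order turned, with 3.72 tags for the set and 4.73 for the Rab genes. The Atp5 and Rab comparisons were added after the data had been seen.

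Whether a gene's share of tags differed between the 4 libraries was tested for every gene of the table with an exact multinomial test and Benjamini-Hochberg adjustment. At the planned minimum of 20 tags, 70.1% of the 211 tested genes were called at an adjusted p under 0.05, and none of the endosome, lysosome and pump genes had enough tags to be tested. At a minimum of 10 tags, 40.9% of 533 genes were called. Of the 6 endosomal and pump genes among them, 0 were called and 0 had an unadjusted p under 0.05, while among the 322 genes of the table with 10 to 19 tags the share called was 25.2%. The adjusted p of the 6 genes ran from 0.167 for Snx3 to 0.765 for Snx27, with 0.209 for Atp6v1e1 and 0.697 for Atp6v1h. Without the Bc1-like sites, 65.6% of the genes with at least 20 tags and 36.9% of those with at least 10 were called, and again 0 of the 6. A p above the threshold does not show that a share was the same in all libraries. This test sets libraries against counting error and takes each tag as a separate molecule, so PCR copies counted as tags would raise the number of genes called. The labels number the replicates but do not tie them to animals, so the p-values of the ratios measure only the spread between these samples.

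Other genes that assemble the pump or serve the same organelles were read from a list outside the name rule. Of 12 genes for pump assembly and regulation, 8 were listed, with 21 tags. Wdr7, a subunit of the Rabconnectin-3 complex that joins V1 to V0, had 2, 2, 2 and 4 tags and was the 1 gene of this list with tags in all 4 libraries (adjusted p = 0.301, exact multinomial test). Its partner Rogdi had 3, 2, 0 and 0. Of 36 other lysosomal genes, 26 were listed with 115 tags, or 62 without the 1 Bc1-like site among them. They include Lgmn, the protease legumain, with 7, 2, 1 and 1 tags (adjusted p = 0.772, exact multinomial test).

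In that list 1 of the 2 genes tested was called, and it was Clcn3, a chloride-proton exchanger of endosomes, with 1, 52, 0 and 0 tags (adjusted p = 8.41e-32, exact multinomial test). Its single site lay between genes and matched all 63 of the Bc1 words searched, so it is a Bc1-like site listed under the gene's name. Of 32 other endosomal gene symbols, which hold both an old and a new symbol for Washc2 and Washc3, 19 were listed with 51 tags, led by Rab5b with 0, 3, 2 and 2.

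Most 3′ ends of the set were ordinary ends of annotated mRNAs. A 3′UTR on the same strand held 69 of the 83 sites (83.1%, interval 73.7% to 89.7%), against 76.5% of all sites. Another 5 sites were intronic, 1 was in a noncoding exon and 8 lay between genes. The polyA signal AATAAA or ATTAAA, searched on the strand of the site only, was present within 50 bases of 71 sites (85.5%, interval 76.4% to 91.5%), against 78.1% of all sites. All 40 sites that were seen in more than 1 library lay in a 3′UTR of some gene (interval from 91.2%), against 88.6% of such sites in the table. For 2 of them, named Vps25 and Chmp1b, it was the 3′UTR of Ramp2 and of Gnal. A signal was present at 39 of the 40 (97.5%, interval 87.1% to 99.6%), against 84.3%. The exception was Atp6v1d with AGTAAA, which stood within 50 bases of 5.76% of all sites and of 11.8% of the sites with neither main signal. These comparisons with the table were not tested.

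The listed base is not the cleavage position itself. The signal began at a median of 1 base before the listed base (position -1, n = 71), and at position -2 over the whole table. Of the 54 sites within 50 bases of an annotated transcript end of the same gene, 52 lay upstream of that end, by a median of 21 bases, the same as for the whole table. The search on both sides of the site gave 71 sites with a signal, and the 50 bases upstream alone gave 26 (31.3%, against 30.3% of all sites).

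**Figure D3:**
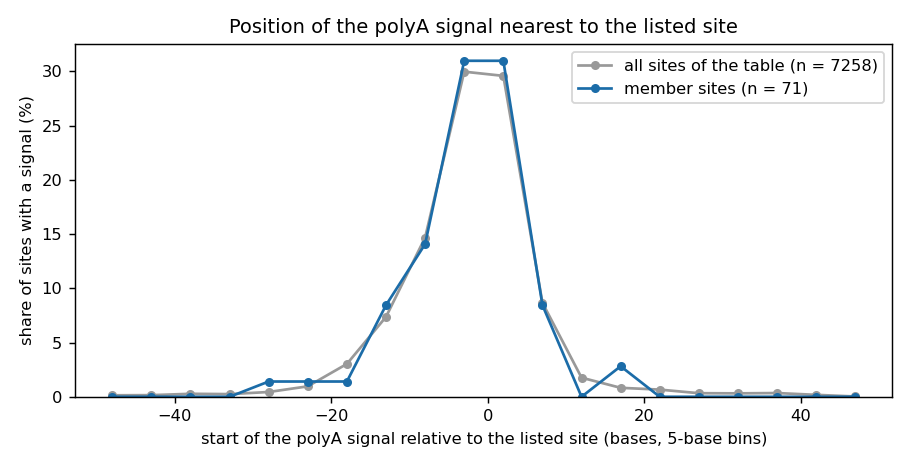
Start of the polyA signal nearest to the listed site (bases relative to it, horizontal axis, in bins of 5 bases) as a percentage of the sites with a signal (vertical axis). The 71 sites of the set (blue) and the 7258 of the whole table (grey) peak at the same place, around the listed base.

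The 3′UTRs at the sites of the set had a lower median length than those of the table. The spliced distance from stop codon to site had a median of 639 bases (95% interval of the median 455 to 844, n = 69), against 957 bases (925 to 994, n = 7071) over the table. At sites seen in more than 1 library the medians were 688 (460 to 945, n = 40) and 1032 (967 to 1079, n = 2801). The distance was over 250 and up to 1000 bases at 38 of the 69 sites and over 2000 bases at 8. The 69 include the sites named Vps25 (162 bases) and Chmp1b (4052 bases), which were measured in the 3′UTRs of Ramp2 and Gnal. Genes are not replicates of a condition, so the medians are a description without a test. Base composition near the sites differed little, with a median GC content of 38.8% within 100 bases against 37.3%.

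**Figure D4:**
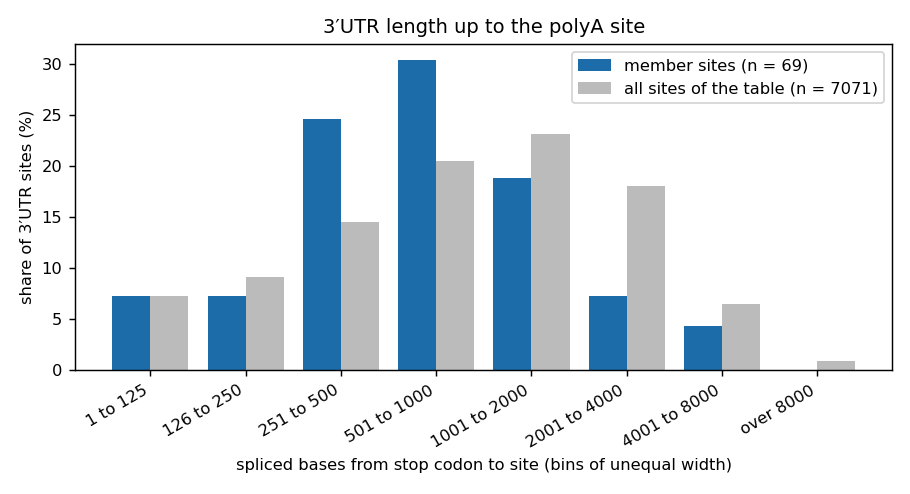
Spliced 3′UTR length up to the polyA site (bases, bins of unequal width, horizontal axis) as a percentage of 3′UTR sites (vertical axis) for the set (blue, n = 69) and the whole table (grey, n = 7071). The set is fuller from over 250 up to 1000 bases and thinner above 1000 bases, with none of its sites over 8000.

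Among single genes the range was wide. The main site of Snx27 lay 4490 bases past the stop codon, 23 bases before the annotated gene end, while that of Atp6v1h lay 261 bases past its stop codon. Atp6v1e1 used an annotated end within the gene: its site lay 436 bases past the stop codon and 12 bases before a transcript end, but 961 bases before the end of the gene's longest model. Atp6v1d did likewise, at 460 bases and 2284 bases before the gene end. The site of Lamp2, the second lysosomal membrane protein, was 23 bases before a transcript end that lies inside the gene, 18173 bases before its end, and had 1, 1, 0 and 1 tags.

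Other sites fell where the annotation has no end. Ctsb's site, with tags in every library, lay 783 bases past the stop codon, 1249 bases past the nearest annotated end and 2811 bases before the end of the gene, and has the signal AATAAA shown above. Ctsl's site lay 612 bases before the nearest annotated end and had an AATAAA as well. In all, 15 sites (18.1%, against 14.4% of the table) were at an annotated end more than 50 bases before the gene end.

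More than 1 site was listed for 10 genes (14.1%, against 21.7% of all genes), and for none of them was more than 1 site seen in more than 1 library. No site usage could therefore be compared between libraries in the set. In the table the test of site usage covered 50 genes and called 26% of them, and with all listed sites it covered 101 genes and called 17.8%. Over all listed sites of the 10 genes the most proximal held 9, 2, 6 and 0 tags and the most distal 14, 3, 4 and 3, and since replicate 4 had no proximal tag no log2 ratio was formed.

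Snx27 had 1 tag at a proximal site and 12 tags at a site 3584 bases further along the genome. Atp6v1a had 1 tag at its proximal and 4 tags at its distal site, 877 bases apart. Lamp1 was the reverse, with 7 tags at its proximal site and 1 tag 132 bases downstream of it, beyond the annotated end. Vps29, a retromer subunit, had 1, 2 and 1 tags at sites 61, 344 and 2042 bases past the stop codon, each in another library.

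**Figure D5:**
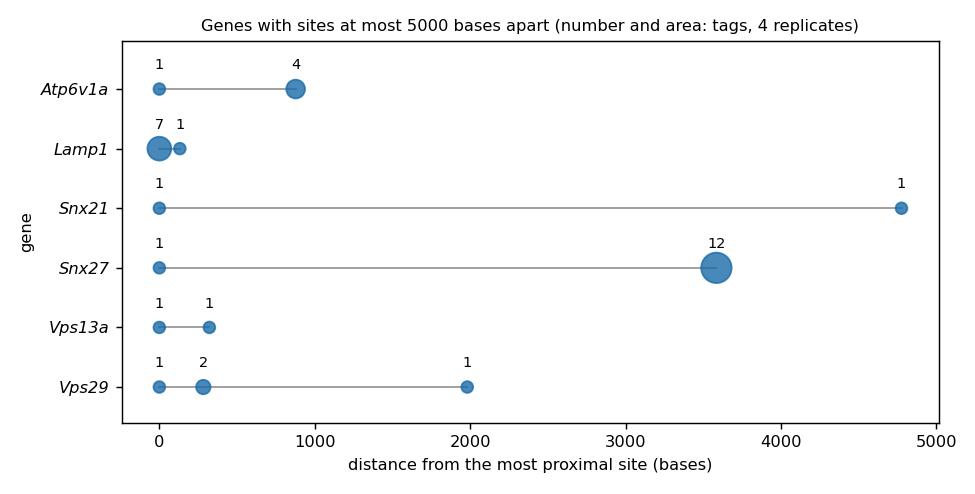
The 6 genes whose sites lie at most 5000 bases apart, with distance from the most proximal site (bases) on the horizontal axis. Each circle is a site, its area and number giving the tags of the 4 replicates together; Snx27 has 12 of its 13 tags at the distal site, and Lamp1 7 of its 8 at the proximal site.

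Not every site belongs securely to the gene in whose name it stands. At 10 of the 83 sites (against 23.5% of sites in the table) the annotated gene on that strand had another name or there was none. Atp6ap1l and Chmp4c were listed by 1 tag each, 781 and 109 kb past the gene, and Atp6v1g3 by 1 tag 49.4 kb past it. The site named Vps25 lay in the 3′UTR of Ramp2. The site named Chmp1b lay in that of Gnal. The second site of Lamp1 and the site of Vps36 were only 101 and 74 bases past the annotated end. The intronic site of Vps8, with 2 tags in replicate 1, had 18 exact copies in the genome and was the 1 Bc1-like site of the set. Both Lamp1 sites also overlap an exon of Grtp1, and the Ctsa site 1 of Pltp, on the opposite strand.

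Of the 115 protein-coding genes in GENCODE vM21 that match the name rule, 44 had no site under their own name. They include 14 of the 30 sorting nexins and 5 of the 8 genes grouped here with the HOPS and CORVET tethers. They also include 4 of the 7 ESCRT-I and ESCRT-II genes and 3 of the 5 GARP and EARP genes. All 4 retromer genes, Vps26c and all 4 Vps13 genes were listed. Ctsz was the 1 cathepsin of the rule without a site. Of these nexins, Snx5 and Snx32 had 2 tags and 1 tag at sites that the table names Snord17 and 1700020D05Rik, as Atp6v0a1 had under Mir6928. The table lists only sites at peaks from Camk2a-expressing cells, as its title says, so no limit can be given for a gene without a listed site.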

How the data were processed

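The authors mapped cTag-PAPERCLIP tags to the mouse genome and called clusters with the CTK package. The submitters' processing notes name cutadapt, Novoalign and mm10. The deposited table gives raw tag counts per polyA site in 4 neuropil libraries, with a gene name per site, at peaks from Camk2a-expressing cells as its title says. How duplicate tags were collapsed is not given in the sources used here, and collapsing that differed between libraries would change counts. All columns of per-sample values were used.

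Sites were placed on GENCODE vM21 by strand, and sequence was read from RefSeq's GRCm38. A site counted as Bc1-like when at least 10 of 63 words of 12 bases from the first 74 bases of Bc1 occurred within 75 bases. Shares are percentages of library totals. Single libraries have 95% Wilson intervals. Ratios were tested by exact sign-flip permutation over 4 libraries, and genes by an exact multinomial test (100000 draws above 150 tags) with Benjamini-Hochberg adjustment over all genes tested. Both tests between libraries were tested on simulated data. Python 3.11.15, NumPy 2.4.6, pandas 2.3.3, SciPy 1.17.1 and matplotlib 3.10.9 were used.

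Genes with at least 10 tags or tags in every library were named with their values, and others by group or as having tags in 3 libraries. The members, lists and tests were chosen with earlier results of these data known.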

Additional observations from a re-analysis of the deposited data

Results flagged for a closer look

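In 2 of 32 values tested, 1 library stood apart from the other three by Dixon's criterion, where chance alone would give about 1.6. They were the shares of Atp6v1c1 and Vps41, each with a gap of 0.841 of the whole range, above the critical value for 4 samples. Both genes had 1 tag in each library, so the low share of replicate 1 (0.00624%, against 0.0151% to 0.0168%) is its larger total restated.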

How the results depend on the processing

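Of the results recomputed under other settings, 63 values stayed on the same side or within the spread, 8 moved and 2 reversed, and the 72 values for single genes stayed the same. Of the 63, 13 are counts of 0 calls in tests that covered none of these genes and say nothing about stability, which leaves 50. The cause was not tested except where the setting itself shows it. Restricting the count to sites seen in more than 1 library gave a sorting share of 0.242%, 97.5% of sites with a signal, 100% in a 3′UTR and a log2 ratio of pump to sorting of 0.39, which reverses its direction. Requiring at least 2 tags in each of more than 1 library lowered the share of repeated sites to 18.1%, and requiring 3 libraries to 24.1%. A signal was found at 31.3% of sites upstream only and at 63.9% for AATAAA alone.

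Leaving out each library in turn gave 36.9% to 50% of repeated sites, the lowest without replicate 1, and -0.42 to 0.0336 for the log2 ratio of pump to sorting, reversed without replicate 2. The log2 ratio of V1 to V0 ran from 2.59 to 3.35 without single libraries and was 2.39 with GENCODE names at each site. It could not be formed without the most tagged gene of each sector, since V0 without Atp6v0b is at 0 in replicate 3. The log2 ratio of distal to proximal tags has no value under any setting tried with all 4 libraries, because no gene had more than 1 repeated site or because replicate 4 had no proximal tag. No paired analysis was possible because all libraries belong to 1 group. The alternatives for single genes, and those that add Mir6928 sites or Tcirg1 to V0, change marker lists, or leave out Vps26c or Bc1-like sites of single groups, were chosen after seeing the data. Counts of 1 to 18 tags per gene limit all statements on single genes.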
